A study of Mus musculus with 21 samples.

Results

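The authors listed 2127 p53 peaks as specific to Trp53 wild-type (WT) cells. Of these, 305 overlap a repeat of class long terminal repeat (LTR) but neither of the 2 most frequent ones, RLTR1B and MMERGLN_LTR. Members were taken from the deposited repeat annotation as peaks with at least 1 entry of class LTR and no entry named RLTR1B or MMERGLN_LTR. They made up 14.3% of the WT-specific list (95% exact binomial interval 12.9 to 15.9) and 30.6% of its 996 LTR peaks (27.8 to 33.6). Binding was measured by CUT&RUN, in which an antibody directs micrococcal nuclease to cut out the DNA around a bound protein. The cells were ID8, an untreated and immortalized mouse ovarian surface epithelial line of strain C57BL/6, either Trp53+/+ or Trp53-/- (KO). Each genotype had 2 p53 antibody samples and 1 deposited peak list, with 6811 peaks in WT and 9784 in KO. Every value below is therefore a property of 1 list, with no replicate behind it and with the read depth unknown. The sources used here do not say how the KO line was made or whether it is 1 clone, and peak lists hold no expression by which the cell type could be checked.

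LTRs are the ends of endogenous retroviruses, the remains of past retroviral infections of the germ line, and they carry the promoter that once drove the provirus. Most proviruses have recombined to a solitary LTR, while others keep internal retroviral sequence between a pair of LTRs. Class LTR in the annotation includes such internal sequence, so both count as LTR below unless an element is named. The transcription factor p53 binds DNA as a tetramer at a response element made of a pair of 10-base sites, and particular mammalian LTRs are known to carry such elements.

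The genome of the files was not used here, so sequence was read where a RefSeq promoter window (build GRCm38.p6, the assembly of mm10; 250 bases before a gene start to 50 after it) overlapped a member peak. This held for 16 windows at 13 of the 305 peaks. The window of D730003K21Rik, a long noncoding RNA gene, is shown because it lies almost wholly in an LTR of the most frequent name, RLTR23: 274 of its 300 bases fall in the element at chromosome 9, positions 116326902 to 116327346, minus strand. The deposited annotation placed the peak, of 393 bp at 116327059 to 116327451, in the promoter of RP23-396C4.2. The 250 bases before the gene start, chr9:116327073-116327322 on the plus strand, are printed 5′ to 3′ with the full p53 response element in capitals:

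D730003K21Rik: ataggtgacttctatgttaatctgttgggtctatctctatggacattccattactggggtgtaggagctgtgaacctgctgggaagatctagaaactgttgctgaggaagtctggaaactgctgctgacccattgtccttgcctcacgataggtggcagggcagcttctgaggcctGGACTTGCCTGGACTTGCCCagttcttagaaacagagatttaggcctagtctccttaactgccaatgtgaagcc

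This element matched the 20-base p53 consensus, 2 sites with no spacer, at every position. Its centre lay 88 bp from the 5′ end of the RLTR23 element and 3.5 bp from the midpoint of the peak. The consensus reads the same on both strands, so 1 search covers both.

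A second exact match was found at Gm51651, another long noncoding RNA gene, in the longest promoter peak among the members (1643 bp, annotated to RP23-76L21.2). Here the response element was not in the LTR. The peak overlapped RMER10A, and the centre of the match lay 563 bp from the 5′ end of that 376 bp element and 93.5 bp from the peak midpoint. The third match, with 1 mismatch, was at Gtse1, whose product binds microtubules and restrains p53, and it too lay outside the annotated LTR, RMER15, with its centre 58.0 bp from the peak midpoint. For comparison, the window of Gm34607 in an MMERGLN_LTR peak held a match with 1 mismatch, centred 121 bp from the 5′ end of the element. The sequences are given with the response element in capitals, the first with 20 bases on each side (chr1:155056304-155056363, plus strand) and the others alone (chr15:85859945-85859964, plus strand, and chr10:22411059-22411078, minus strand):

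Gm51651: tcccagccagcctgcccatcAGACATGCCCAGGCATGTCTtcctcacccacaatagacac

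Gtse1: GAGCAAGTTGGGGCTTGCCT

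Gm34607: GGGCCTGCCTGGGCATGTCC

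Across all 32851 promoter windows of the reference, 3 held an exact full match, and 2 of these 3 were the windows above. A full match with up to 2 mismatches was in 3 of the 16 member windows (18.8%) and in 0.798% of all windows. A single 10-base p53 site was in 5 of 16 (31.2%) and in 8.36% of all windows. The other windows with a single site were at Ces2g, a carboxylesterase gene, and Pdcd7, which encodes a splicing protein. At MMERGLN_LTR peaks, 3 of 6 windows (50%) held a full match with up to 2 mismatches, and the same number a single site. However, 2 of these 3 were overlapping windows of the gene Zfp958 at 1 peak, and they held the same match. That match lay outside the LTR, 988.5 bp from the peak midpoint, so Gm34607 alone had its match inside MMERGLN_LTR. At peaks without any repeat, 10 of 115 windows (8.70%) held a full match and 18 (15.7%) a single site. The 1 window at an RLTR1B peak held a single site and no full match. These are matches of letters, not measured sites, and 16 windows are too few to describe 305 peaks. Some of the 16 overlap one another, as at Gtse1, so windows are not independent.

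The members were a long-tailed mixture led by RLTR23. Among 96 LTR names, RLTR23 was in 98 peaks (32.1% of the members) and RLTR1F_Mm in 36 (11.8%). The other 8 names with at least 5 peaks were MTD (14), MMERGLN-int (12), MLT1H (9), RLTR1 and RLTR1D2_MM (8 each), LTR88b and ORR1F (6 each) and RLTR1E_MM (5). A total of 64 names occurred in a single peak each. By family, class I retroviruses (ERV1) were in 160 peaks (52.5%, 46.7 to 58.2) and ERVL-MaLR elements in 77 (25.2%, 20.5 to 30.5). ERVK was in 65 (21.3%, 16.9 to 26.3) and ERVL in 14 (4.59%, 2.53 to 7.58). Names that begin with RLTR1, which include RLTR1F_Mm but leave out RLTR10 and the like, were in 65 peaks, and no peak held both such a name and RLTR23. The remaining 142 peaks had neither.

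**Figure D1:**
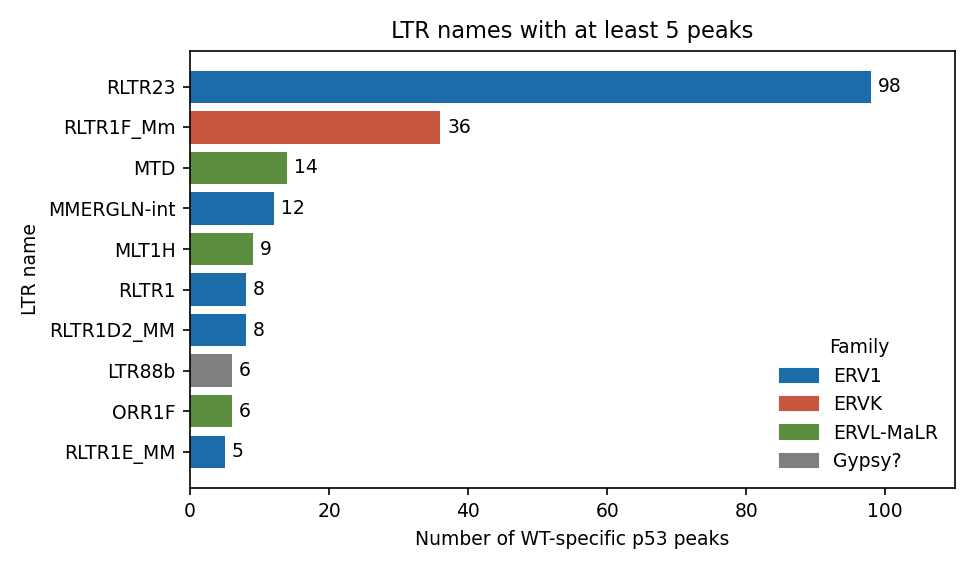
Number of WT-specific p53 peaks (horizontal axis) for each LTR name with at least 5 peaks (vertical axis), among the 305 peaks without RLTR1B or MMERGLN_LTR, with bars coloured by the family that the annotation gives. RLTR23 leads with 98 peaks, followed by RLTR1F_Mm with 36 and MTD with 14.

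The RLTR23 peaks gathered near the 5′ end of the element. The median midpoint was 91.5 bp into RLTR23, with an interquartile range of 60.3 to 119 bp, and the median element measured 421.5 bp. The midpoint fell inside the RLTR23 entry with the longest overlap in 89 of 98 peaks, and inside any LTR entry in 92. The exact response element printed above, at 88 bp, falls within this range. RLTR23 elements were on the plus strand in 53 peaks and on the minus strand in 45. Their median length was 461.5 bp (95% interval from order statistics 415 to 546) and the range 197 to 1513 bp. The peak midpoint is not a measured summit, and a peak about as long as the element constrains where its midpoint can fall.

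The other names differed in position. Midpoints lay a median of 78.3 bp into RLTR1 (34.0 to 92.8 bp), inside the element in 8 of 8 peaks. In RLTR1D2_MM the median was 28.8 bp (-18.6 to 92.3 bp), or 93.5 bp over the 4 of 8 peaks that the element covered by at least 50%. In RLTR1E_MM it was 18 bp (0.5 to 19 bp). The ERVL-MaLR elements MTD and MLT1H had medians of 100.3 and 94.0 bp. However, the MTD values spread over an interquartile range of 178 bp, against 58.5 bp for RLTR23. The median MLT1H element measured 219 bp, against 421.5 bp for RLTR23, and 6 of 9 MLT1H midpoints fell inside it. Positions count from the start of the annotated entry, however short, so like medians in different names need not mark a like position. ORR1F peaks had midpoints inside the element in 1 of 6 cases, and LTR88b peaks in 3 of 6. In RLTR1F_Mm the median was -51.8 bp (-107 to -18.6 bp), which is upstream of the element, and 7 of 36 midpoints fell inside it. Over the 7 peaks that RLTR1F_Mm covered by at least 50%, the median was 49 bp.

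**Figure D2:**
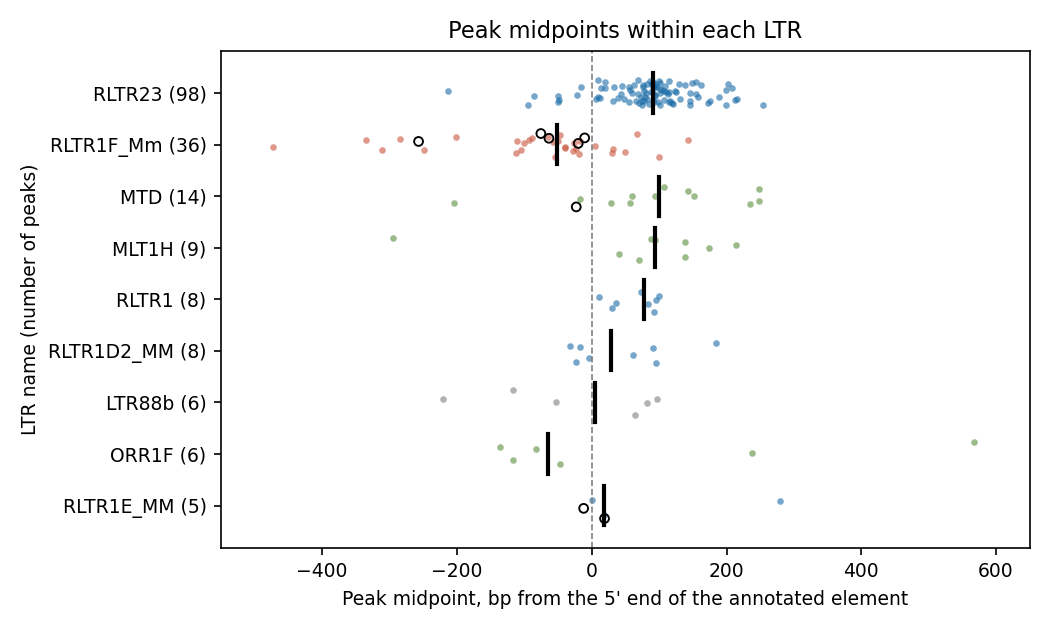
Midpoint of each peak in bp from the start of the LTR by its strand (horizontal axis, 0 at the dashed line, positive into the element) for 9 LTR names (vertical axis, number of peaks in parentheses), with the median as a black bar, colours by family and peaks overlapped by a KO peak as open circles. RLTR23 midpoints gather around 91.5 bp, while most RLTR1F_Mm midpoints lie upstream of the element. The point of 1 MTD peak at 1156 bp is beyond the axis.

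The RLTR1F_Mm peaks were long and came in pairs on chromosome 14. Their median length was 974.5 bp (938 to 1031), and 22 of the 36 lay on chromosome 14 between positions 3271769 and 19495313. Chromosome 14 held 33 of the 305 members (10.8%), against 5.17% of all WT-specific peaks. Segments of MMERGLN-int, the internal sequence of an ERV1 provirus, entered only through a member peak that overlapped them. RLTR1F_Mm elements likewise counted only where a member peak overlapped them. Segments without a peak, or only with peaks that also held MMERGLN_LTR, were not seen, so the counts do not describe all such proviruses. Of the 12 distinct segments that entered, 11 were flanked by RLTR1F_Mm on both sides, with a member peak at each of the 2 ends. These 11 segments, all on chromosome 14, were alike in length, at 7316 to 7359 bp. Their sequences were not compared. The downstream RLTR1F_Mm began where the internal segment ended, and the upstream one ended 124 to 137 bp before it. A pair of neighbouring segments shared the RLTR1F_Mm between them, so that 21 peaks served the 22 ends. The annotation gives RLTR1F_Mm as ERVK but MMERGLN-int as ERV1, so the family counts above place parts of 1 provirus in different families.

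At the upstream end the peak midpoint had a median of -57.5 bp relative to the LTR start (range -105.5 to -10.5 bp), in the sequence that flanks the provirus. At the downstream end the median was -23.5 bp (range -112 to 31 bp), in or at the edge of the internal segment. Peaks were of like length at both ends, with medians of 955 and 947 bp. Gm46468, a long noncoding RNA gene, starts at 1 such junction: its whole 300-base promoter window lay in MMERGLN-int, inside a member peak, and no p53 site was found in that window. The 14 RLTR1F_Mm peaks on other chromosomes had a median length of 1142 bp and a median midpoint of -156.5 bp. The 12th MMERGLN-int peak, of 487 bp, was in an intron of Ddr2, a collagen receptor gene, with no RLTR1F_Mm entry. The sources used here do not give how reads matching several copies, if any, were placed. The copies therefore cannot be counted as independent sites.

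**Figure D3:**
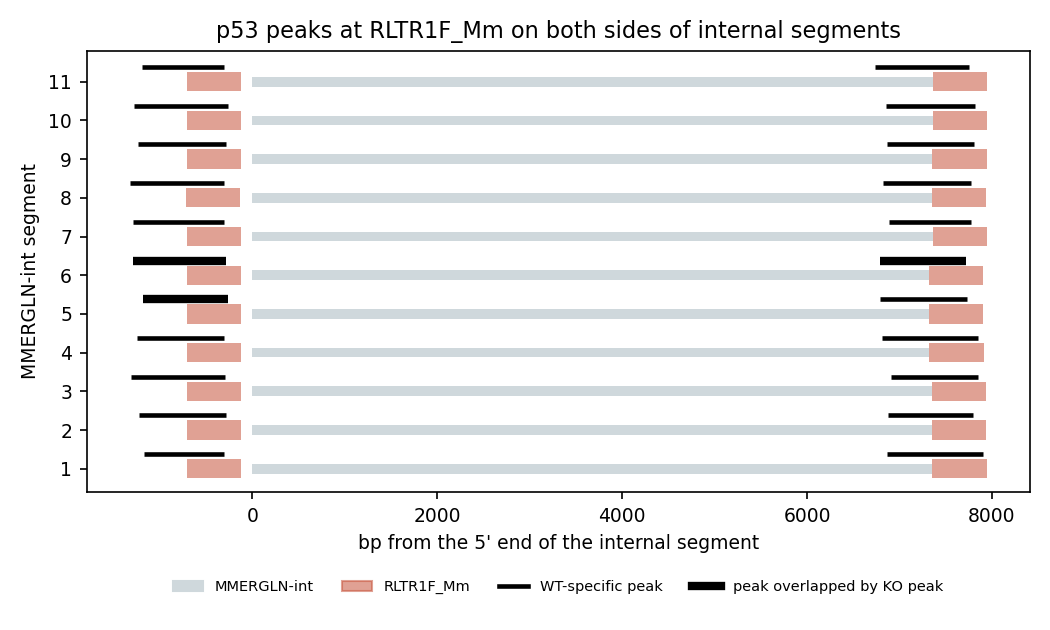
The 11 MMERGLN-int segments of chromosome 14 found through member peaks (vertical axis, grey), with flanking RLTR1F_Mm elements (red) and WT-specific p53 peaks (black lines). Positions are in bp from the 5′ end of each segment in its own direction (horizontal axis). Each segment has a peak at both ends that covers part of the LTR and extends upstream of it. Thick lines mark the 3 peaks overlapped by a KO peak.

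The peaks varied in how far the LTR accounted for them. The median member was 490 bp long (446 to 546), and LTR sequence covered a median of 53.9% of it (interquartile range 38.8 to 71.6%). LTR cover reached 50% in 178 of 305 peaks and stayed under 25% in 41. The midpoint lay in an LTR in 202 peaks (66.2%, 60.6 to 71.5), compared with 97.6% (95.6 to 98.8) of RLTR1B peaks and 95.6% (92.5 to 97.7) of MMERGLN_LTR peaks. Cover and midpoints here count internal retroviral sequence too. Among RLTR1F_Mm peaks, 16 midpoints lay in an entry of class LTR, but 7 in RLTR1F_Mm itself. Among the 142 peaks with neither RLTR23 nor an RLTR1 name, 71 midpoints lay in an LTR. The 3 longest members were covered by under 25%. The longest member, 2311 bp on chromosome 18 (positions 5788386 to 5790696), had 4.54% of its length in an MTD element. The next, 2094 bp on chromosome X, had 18% in MTA_Mm. The third was a 1773 bp peak with RLTR1F_Mm on chromosome 9, in an intron of RP24-325L16.1, with 23.3% cover.

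**Figure D4:**
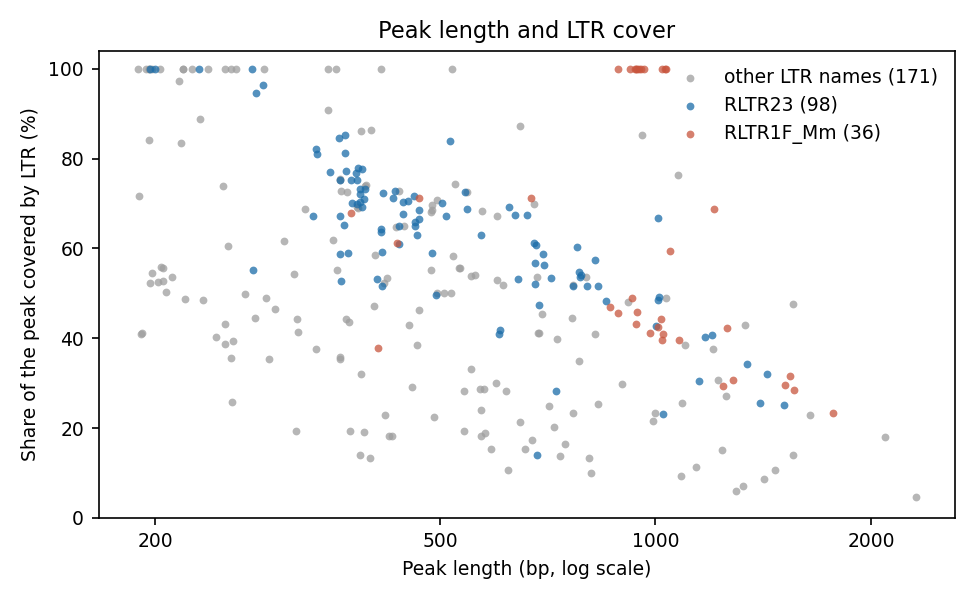
Share of each peak covered by LTR entries, internal sequence included (vertical axis, %), against peak length (horizontal axis, bp, log scale) for the 305 peaks. RLTR23 is in blue, RLTR1F_Mm in red and all other names in grey. Peaks over 1000 bp are mostly under 50% covered, and the red points at 100% are RLTR1F_Mm peaks that continue into MMERGLN-int.

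Repeats of another class were listed for 17 of the 305 peaks, 10 of them with a SINE and 5 with a LINE. The shortest overlap of any LTR entry was 53 bp, so shorter overlaps with any repeat may be unlisted. The same holds for the peaks described as without a repeat. Internal retroviral sequence was in 24 peaks. Within 10 kb of another member lay 31 peaks, of which 21 were the RLTR1F_Mm peaks just described and 5 were RLTR23 peaks.

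KO peaks, the background measured with the same antibody, overlapped 10 of the 305 members by at least 1 bp (3.28%, 1.58 to 5.95), where 3.34% of all WT-specific peaks were overlapped. The share was thus that of the whole list. The rule that made the WT-specific list, and so its use of the KO list, is unstated in the sources used here. By name, the 10 peaks divided as follows. RLTR23 had 0 of 98, which allows a share of up to 3.69% (upper bound of the exact binomial interval), RLTR1F_Mm had 5 of 36 (13.9%, 4.67 to 29.5) and RLTR1E_MM 2 of 5. MTD and MLT1K had 1 each. The longest of the 10 were 1258 bp on chromosome 14 (18564667 to 18565924) and 1242 bp on chromosome 10 (46784946 to 46786187), both on RLTR1F_Mm. KO overlap was more frequent than among RLTR1B peaks, at 1 of 417 (odds ratio 14.1, exact Fisher adjusted p = 0.00228), and than among MMERGLN_LTR peaks, at 1 of 274 (odds ratio 9.25, exact Fisher adjusted p = 0.0183). Without the 41 peaks on RLTR1F_Mm or RLTR1E_MM it was 3 of 264 (1.14%), and neither contrast passed (exact Fisher adjusted p = 0.332 and 0.365). Nor did either pass without chromosome 14, where the copies described above lie (exact Fisher adjusted p = 0.0673 and 0.217). Against peaks without a repeat, at 26 of 683 (3.81%), the difference did not pass (odds ratio 0.857, exact Fisher adjusted p = 0.854). Leaving out RLTR1F_Mm and RLTR1E_MM, or chromosome 14, was an alternative chosen after seeing the data.

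The members were more often annotated to promoters, and less often intergenic, than the peaks on the 2 dominant LTRs. Their intron share was also higher. Neither intron contrast held under every setting, and nor did the promoter contrast with MMERGLN_LTR. Promoters held 30 of 305 (9.84%, 6.74 to 13.7), against 10 of 417 RLTR1B peaks (2.40%; odds ratio 4.44, exact Fisher adjusted p = 8.66e-05) and 14 of 274 MMERGLN_LTR peaks (5.11%; odds ratio 2.03, exact Fisher adjusted p = 0.0485). Intergenic sites held 170 (55.7%, 50 to 61.4), against 71.0% of RLTR1B peaks (odds ratio 0.515, exact Fisher adjusted p = 8.66e-05) and 72.3% of MMERGLN_LTR peaks (odds ratio 0.483, exact Fisher adjusted p = 0.00011). Introns held 92 (30.2%, 25.1 to 35.7), more than the 19.7% of MMERGLN_LTR peaks (odds ratio 1.76, exact Fisher adjusted p = 0.00694) and the 23.3% of RLTR1B peaks (odds ratio 1.42, exact Fisher adjusted p = 0.0485). A further 9 members lay in 3′ UTRs and 4 in 5′ UTRs. Compared with the 683 peaks without any repeat, the members were less often in promoters (28.3% there; odds ratio 0.277, exact Fisher adjusted p = 1.43e-10) and more often intergenic (25.6% there; odds ratio 3.66, exact Fisher adjusted p = 2.27e-18). The intron share, 36.7% there, did not differ by the test (odds ratio 0.743, exact Fisher adjusted p = 0.0553). The family held 12 contrasts, each tested two-sided by Fisher's method on counts of peaks. Several did not pass under other settings: the intron contrast with RLTR1B and the promoter contrast with MMERGLN_LTR were lost where the LTR had to cover 50% of the peak (exact Fisher adjusted p = 0.105 and 0.06), and without chromosome 14 so was the intron contrast with MMERGLN_LTR (exact Fisher adjusted p = 0.0702). The tests treat peaks as independent and describe these lists, not the genotypes.

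**Figure D5:**
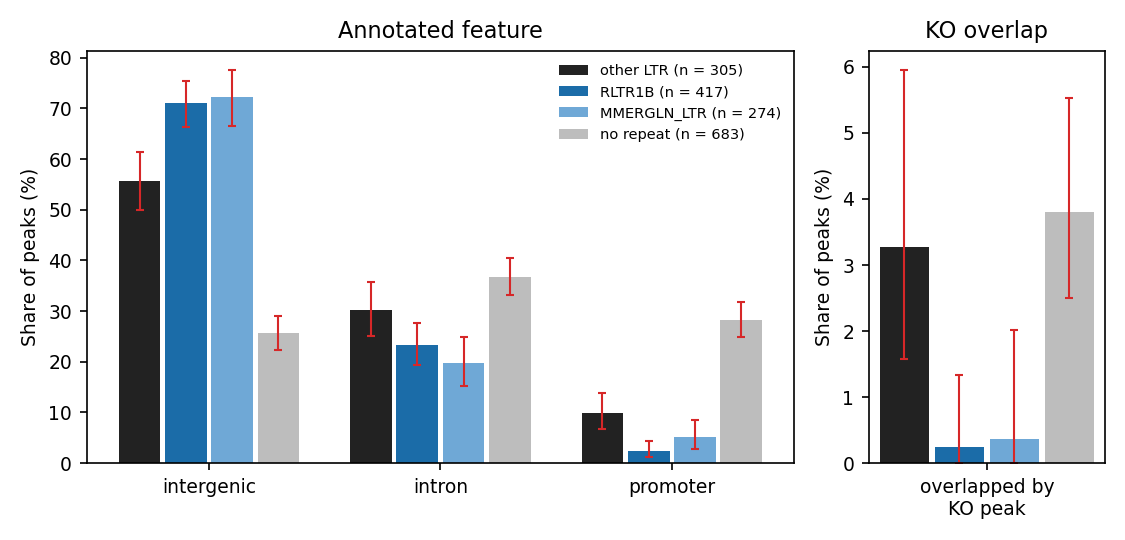
Share of peaks (vertical axis, %) annotated as intergenic, intron or promoter (left) and overlapped by a KO peak (right), for the 305 peaks on other LTRs, 417 on RLTR1B, 274 on MMERGLN_LTR and 683 without a repeat. Bars are shares and red lines are 95% exact binomial intervals. The promoter share of the other LTR peaks, 9.84%, lies between those on RLTR1B and those without a repeat.

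The member peaks at known p53 target genes included those of its main inhibitors, Mdm2 and Mdm4. The lists of p53 targets used here held 57 genes found in RefSeq, and the annotation gave a member peak to 4 of them, all in the cell cycle and feedback list of 17, of which 10 had a WT-specific peak of any kind. Mdm2, the ubiquitin ligase that marks p53 for degradation, had an RLTR23 peak of 361 bp annotated as promoter (chromosome 10, positions 117711466 to 117711826). It lay outside the RefSeq span of the gene, and its midpoint was 124.5 bp into the element. Mdm4, the related inhibitor that blocks p53 transactivation, had an RLTR23 peak of 1513 bp in a 5′ UTR (chromosome 1, 133019256 to 133020768). This was the longest of all RLTR23 peaks, the element covered 25.2% of it, and its midpoint was at -213.5 bp, outside the element. At Gtse1 (chromosome 15, 85859645 to 85860380) and at Psrc1, a gene for a spindle microtubule protein (chromosome 3, 108383561 to 108385119), the LTRs RMER15 and RLTR51A_Mm with RMER17C covered 13.7 and 13.9% of peaks of 736 and 1559 bp. Of these 4 peaks, the LTR thus held the midpoint at Mdm2 alone, and none was overlapped by a KO peak.

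By gene span with 5 kb added on each side, 2 more p53 targets had member peaks. Trp53inp1, a stress-induced p53 cofactor gene, had 1 on either side: a 250 bp peak wholly within MLT1G1 (chromosome 4, 11153960 to 11154209) and a 545 bp peak on RLTR1A2_MM (11176070 to 11176614), both annotated as intergenic. Fas, the death receptor gene, had a 399 bp peak (chromosome 19, 34292149 to 34292547) that the annotation assigned to Gm27818, with RLTR14-int covering 13.3% of it. The other cell death genes (15 of 16), the 19 metabolism, stress and repair genes and the 5 noncoding RNA genes had no member peak by either count. Of 25 genes of RNA and DNA sensing and interferon response and 11 of antigen presentation, 0 had one. WT-specific peaks of any kind were annotated to 9 of the 16 cell death genes, 6 of the 19 and 3 of the 5. For sensing and interferon it was 1 of 25, for antigen presentation 1 of 11 and for repeat silencing 0 of 21. With so few peaks of any kind on these last lists, the counts of member peaks there say little about the members. Of 21 repeat silencing genes 1 did, by gene span: Zfp809, which encodes a zinc finger protein that silences proviruses in embryonic stem cells, had a 671 bp peak on RLTR1F_Mm inside the gene (chromosome 9, 22226763 to 22227433), annotated as the promoter of RP23-187B11.10.

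Of the RLTR23 peaks 10.2% were annotated as promoter, near the 9.84% of all members. RLTR23 supplied 10 of the 30 promoter peaks. Besides Mdm2 they were at Hat1, which encodes a histone acetyltransferase (200 bp), Rbm34, for an RNA-binding protein (351 bp), Ube2v2, a ubiquitin-conjugating enzyme variant (391 bp), Cenpm, a centromere protein (465 bp), Btbd8 (637 bp) and 4 loci with clone-based names, of 393, 408, 698 and 1401 bp. At Rbm34, Ube2v2, Cenpm and Btbd8 the midpoint lay 94.5, 82.5, 114.5 and 119.5 bp into the element, and at Hat1 173 bp. At the 4 clone-named loci, in the order of their lengths, it lay at 91.5, -95, 189 and 116.5 bp. Thus 1 of the 10 midpoints was outside the RLTR23 entry with the longest overlap. That entry made up 26.7% of the 408 bp peak, and RLTR23 in all covered 53.2% of it. RLTR23 lay in an intron in 25 peaks, at 58 sites between genes, and in 2 5′ UTRs and 3 3′ UTRs. The longest promoter peaks on other LTRs were at RP23-76L21.2 (1643 bp, RMER10A), Psrc1 (1559 bp, described above) and RP23-393C3.4 (1222 bp, ORR1F). Next came Dnm3, a dynamin gene (830 bp, MTD), and Aebp2, a Polycomb cofactor gene (781 bp, LTR88b). In this order, LTRs covered 22.9, 13.9, 30.7, 25.4 and 35.0% of the peak, and each midpoint lay outside the LTR.

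The longest peaks on LTR88b, ORR1F, RLTR1E_MM and RLTR1 lay between genes. They were 1324 bp on LTR88b (chromosome 13, 114446482 to 114447805), 1471 bp on ORR1F (chromosome 2, 75767707 to 75769177), 1335 bp on RLTR1E_MM (chromosome 15, 19621682 to 19623016) and 799 bp on RLTR1 (chromosome 17, 61473953 to 61474751), all intergenic. The longest MLT1H peak, 807 bp, was in the 3′ UTR of Slc6a6, the taurine transporter gene, and MLT1H covered 13.4% of it. The 170 intergenic members lay a median of 34.6 kb (22.3 to 46.5) from the nearest protein-coding gene in RefSeq. This interval overlapped those of intergenic peaks on RLTR1B (28.8 kb, 23.2 to 32.9) and on MMERGLN_LTR (39.5 kb, 24.3 to 59.2).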

How the data were processed

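The p53 CUT&RUN peak lists of 2 WT and 2 KO samples of a 21-sample series were used. Per the file headers the deposited tables give only positions, 1 gene feature per peak and the overlapping repeats, with no score or p-value. Per the submitters' processing notes, fastp, Bowtie2, MACS2 and deepTools were used with mm10. The sources used here do not give versions, the rule for WT-specific peaks, the repeat source, the promoter definition, or whether replicates were pooled for peak calling.

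Starts were read as 0-based and are printed 1-based. Position in an LTR is the distance of the peak midpoint from the 5′ end of the element by its strand, in the entry with the longest overlap. Shares carry 95% exact (Clopper-Pearson) intervals, which cover counting error only. Shares were compared by two-sided Fisher's exact tests with Benjamini-Hochberg adjustment over 12 contrasts. Scripts were tested on simulated data. Python 3.11.15, numpy 2.4.6, pandas 2.3.3, scipy 1.17.1 and statsmodels 0.14.6 were used. Gene symbols were matched to RefSeq (81 of 124 annotated names), and promoter sequences are RefSeq's, GRCm38.p6.

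The members, gene lists and tests were chosen with earlier results of these data known. Genes named are those on the lists, the 10 longest promoter or 5′ UTR peaks, the 5 longest peaks, the longest per LTR name, the 3 longest with KO overlap and those with printed sequence. The full set of RLTR23 promoters, Ces2g, Pdcd7, Ddr2 and Gm46468 were added after their values were seen. Some peaks that this rule names are not reported here. Alternatives covered LTR cover, midpoint, other repeats, peak length, KO overlap and gene span.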

Additional observations from a re-analysis of the deposited data

How the results depend on the processing

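No paired analysis was possible because each genotype has a single peak list, so replicates could not be left out either. Of 86 contrast values under the alternatives, 65 stayed on their side of the threshold, 17 no longer passed, 4 newly passed and none reversed. The intergenic contrasts held in each alternative run. Requiring LTR cover of 50% left 178 peaks with a median of 415.5 bp and 1 listed p53 gene; the odds ratios that no longer passed were 1.44 (intron, against RLTR1B), 6.91 (KO overlap, RLTR1B) and 2.57 (promoter, MMERGLN_LTR). Requiring the midpoint in an LTR left 202 peaks, 434 bp, 1 listed gene and 0.99% KO overlap; those not passing were 1.47 (intron, RLTR1B), 2.47 (promoter, MMERGLN_LTR), and 4.06 and 2.61 (KO overlap, RLTR1B and MMERGLN_LTR). With LTR entries alone, the promoter contrast with MMERGLN_LTR was 1.97 and did not pass. The intron contrast with RLTR1B did not pass without KO-overlapped peaks (1.42), without peaks over 1000 bp (1.39), without RLTR1F_Mm and RLTR1E_MM (1.36) or without chromosome 14 (1.29). Leaving out peaks over 1000 bp gave 435 bp, 2 listed genes and an intron contrast with no-repeat peaks that passed (0.715). Without RLTR1F_Mm and RLTR1E_MM, KO overlap was 1.14% and its contrasts 4.78 and 3.14 did not pass, while against no-repeat peaks the intron (0.709) and KO overlap (0.29) contrasts passed. Without chromosome 14, KO overlap contrasts of 7.32 and 4.89 and the intron contrast with MMERGLN_LTR (1.51) did not pass, and the intron contrast with no-repeat peaks did (0.635). A KO peak covering 50% of the member was found in 1.31%. Gene span with 5 kb gave 7 listed genes. Where RLTR1F_Mm covered 50% of the peak, 7 peaks were left and their median midpoint was 49.0 bp. The same rule left 4 RLTR1D2_MM peaks with a median of 93.5 bp. Smaller sets follow from the stricter rules; other causes were not tested. The alternatives without named LTRs or chromosome 14 were chosen after seeing the data.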

Other observations

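The 3′ UTR members were 9 peaks of 250 to 807 bp, and 6 of them carried a RefSeq gene name. They included Defb42, a defensin gene, with an RLTR23 peak of 389 bp whose midpoint lay 107.5 bp into the element, and Shcbp1, with a 250 bp peak with 43.2% of its length in RLTR1D2_MM. Peaks in Nmd3, a ribosome export factor gene (721 bp, MLT1E1A), Slco2a1, a prostaglandin transporter gene (387 bp, MLT1J1), and Prokr2, a prokineticin receptor gene (363 bp, RMER17C), had 20.2, 14 and 35.3% of their length in the LTR. These genes were named after their values were seen. Among intronic members chosen in the same way, Brip1, a helicase gene of DNA crosslink repair, had a 256 bp peak with 25.8% of its length in ORR1E.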
